A study of Bos taurus with 12 samples.

Results

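The genes described here were 10 carriers that move amino acids across the cell membrane, among them SLC7A11, the cystine carrier. They were chosen by name, each read on the probeset whose only gene symbol was that name, and all 10 of the 18010 genes with such a probeset were on the array with 1 probeset each. The other 9 members were SLC7A5, SLC7A1, SLC7A2, SLC3A2, SLC1A4, SLC1A5, SLC38A1, SLC38A2 and SLC6A9. RNA was measured on 12 Bovine Gene 1.0 ST arrays, which carry short DNA probes along each transcript, with 1 array per tissue and heifer. The cells were epithelial cells of the isthmus, the part of the oviduct that joins the uterus, and of the ampulla, the part nearer the ovary, from 6 normally cycling Angus heifers. In the follicular phase (FP) group, 3 heifers received 25 mg of prostaglandin F2α, which ends the life of the corpus luteum, on day 6 and were killed 36 h later, at a time of high estradiol. In the luteal phase (LP) group, 3 heifers without that treatment were killed on day 11 or 12, at a time of high progesterone, with days counted from ovulation in the sample labels and from estrus in the methods of the study. Phase, treatment and day of the cycle therefore went together and cannot be told apart.

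Amino acid carriers of the SLC families differ in what they carry and in what drives them. The light chains SLC7A11 and SLC7A5 work as exchangers, bound to the heavy chain SLC3A2 that brings them to the surface. SLC7A11 takes up cystine in exchange for glutamate, and the cysteine made from cystine is used for glutathione, the main small antioxidant of the cell. SLC7A1 and SLC7A2 carry cationic amino acids such as arginine and lysine. SLC1A4 and SLC1A5 exchange small neutral amino acids, SLC38A1 and SLC38A2 take up neutral amino acids such as glutamine together with sodium, and SLC6A9 is a sodium- and chloride-driven carrier of glycine. Glycine and other amino acids are components of the oviductal fluid in which gametes and early embryos are bathed.

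Values are log2 signals, so that a difference of 1 is a doubling, and levels are not compared between genes because each probeset binds with its own strength. The lower quartile of the 26773 probesets lay at 5.68 to 5.82 on the 12 arrays, the median at 7.33 to 7.40 and the upper quartile at 9.18 to 9.26. A difference was called when its adjusted p in limma was under 0.05 over all probesets and its size was at least 1.5-fold. The mean of the 7 epithelial markers lay at 10.56 to 11.10 over the 12 arrays, above the upper quartile, though KRT8 and PAX8 lay below it on some arrays. Of the 7, 4 had positive and 3 negative FP minus LP differences in each tissue. KRT8, a keratin, was the only one called, higher in the FP in both tissues (0.72 in the isthmus and 0.79 in the ampulla). The keratins KRT18 (0.52 and 0.54) and KRT19 (0.51 and 0.41) were also higher in both (adjusted p up to 0.0243) but under 1.5-fold. The negative ones were EPCAM, CDH1 (-0.56 in the isthmus, adjusted p = 0.00625) and PAX8 (-0.43 in the ampulla, adjusted p = 0.0355). Of 6 markers of ciliated cells, 3 had negative FP minus LP differences in the isthmus and 6 in the ampulla. An adjusted p under 0.05 was reached by 2 of the 6 in the isthmus, with opposite signs, and by 3 in the ampulla, all negative. DNAH5, a motor protein of cilia, was called lower in both tissues (-0.69 in the isthmus and -0.65 in the ampulla). RSPH1, the other one in the isthmus, was higher in the FP there (0.42, adjusted p = 0.0154) but under 1.5-fold. In the LP, 5 of the 6 had negative isthmus minus ampulla differences, 4 of them with an adjusted p under 0.05. RNA of other cells was also present. The mean of 9 leukocyte markers, among them the T cell genes CD3E and CD2, lay at 6.63 to 7.02 in FP isthmus and 7.13 to 8.08 in LP isthmus, and at 6.57 to 6.92 in FP ampulla and 7.39 to 8.38 in LP ampulla. LP heifer 3 was the highest in both tissues. None of the 9 was called higher in the FP, while 1 was called lower in the isthmus and 4 in the ampulla, and CD2 lay below the lower quartile in the FP. The mean of 6 fibroblast markers lay at 8.09 to 9.14 in FP isthmus and 6.67 to 7.23 in FP ampulla, and at 7.05 to 8.92 in LP isthmus and 6.96 to 7.33 in LP ampulla. Among them LUM, a matrix protein of fibroblasts, was at 7.12 in the isthmus of LP heifer 3 against 11.86 and 11.82 in the other LP heifers. Of the 6, 1 was called higher in the isthmus in FP heifers and 2 in LP heifers, as was 1 of 5 smooth muscle markers in LP heifers (MYH11, a contractile protein, by 1.36). MYH11 was also the only 1 of the 5 called between phases, lower in FP than in LP isthmus (means 6.65 and 7.655, adjusted p = 0.00221). In such bulk samples, fewer cells of a type and less RNA per cell cannot be told apart, and the part of all these markers in the differences below was not tested. The values without LP heifer 3 given below leave out 1 animal with all its traits, so they do not test that part. The labels number the heifers, but arrays of the same number in the FP did not deviate together, so results rest on the groups rather than on pairs of FP arrays.

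In isthmus epithelium, FP against LP, 3 of the 10 members were called higher (SLC7A11, SLC7A5 and SLC1A5) and 2 lower (SLC6A9 and SLC1A4), against 4.40% of all probesets called higher and 4.04% called lower. Within the ampulla, 5 were called higher (SLC7A11, SLC7A5, SLC1A5, SLC38A1 and SLC7A1) and 1 lower (SLC6A9), against 4.44% and 3.38% of all probesets. The FP and LP values did not overlap for 9 of the 10 members in each tissue, against 34.2% of all probesets in the isthmus and 35.5% in the ampulla. The exceptions were SLC7A2 in the isthmus and SLC1A4 in the ampulla. The median FP minus LP difference of the members was 0.28 in the isthmus and 0.49 in the ampulla, beside -0.01 and -0.03 over all probesets. The members were named with earlier results of these data known, so these counts describe them and carry no test of the list. Without LP heifer 3, the counts stayed at 5 in the isthmus and 6 in the ampulla, but in the isthmus SLC7A2 took the place of SLC1A4 among them, and in the ampulla that of SLC6A9.

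**Figure D1:**
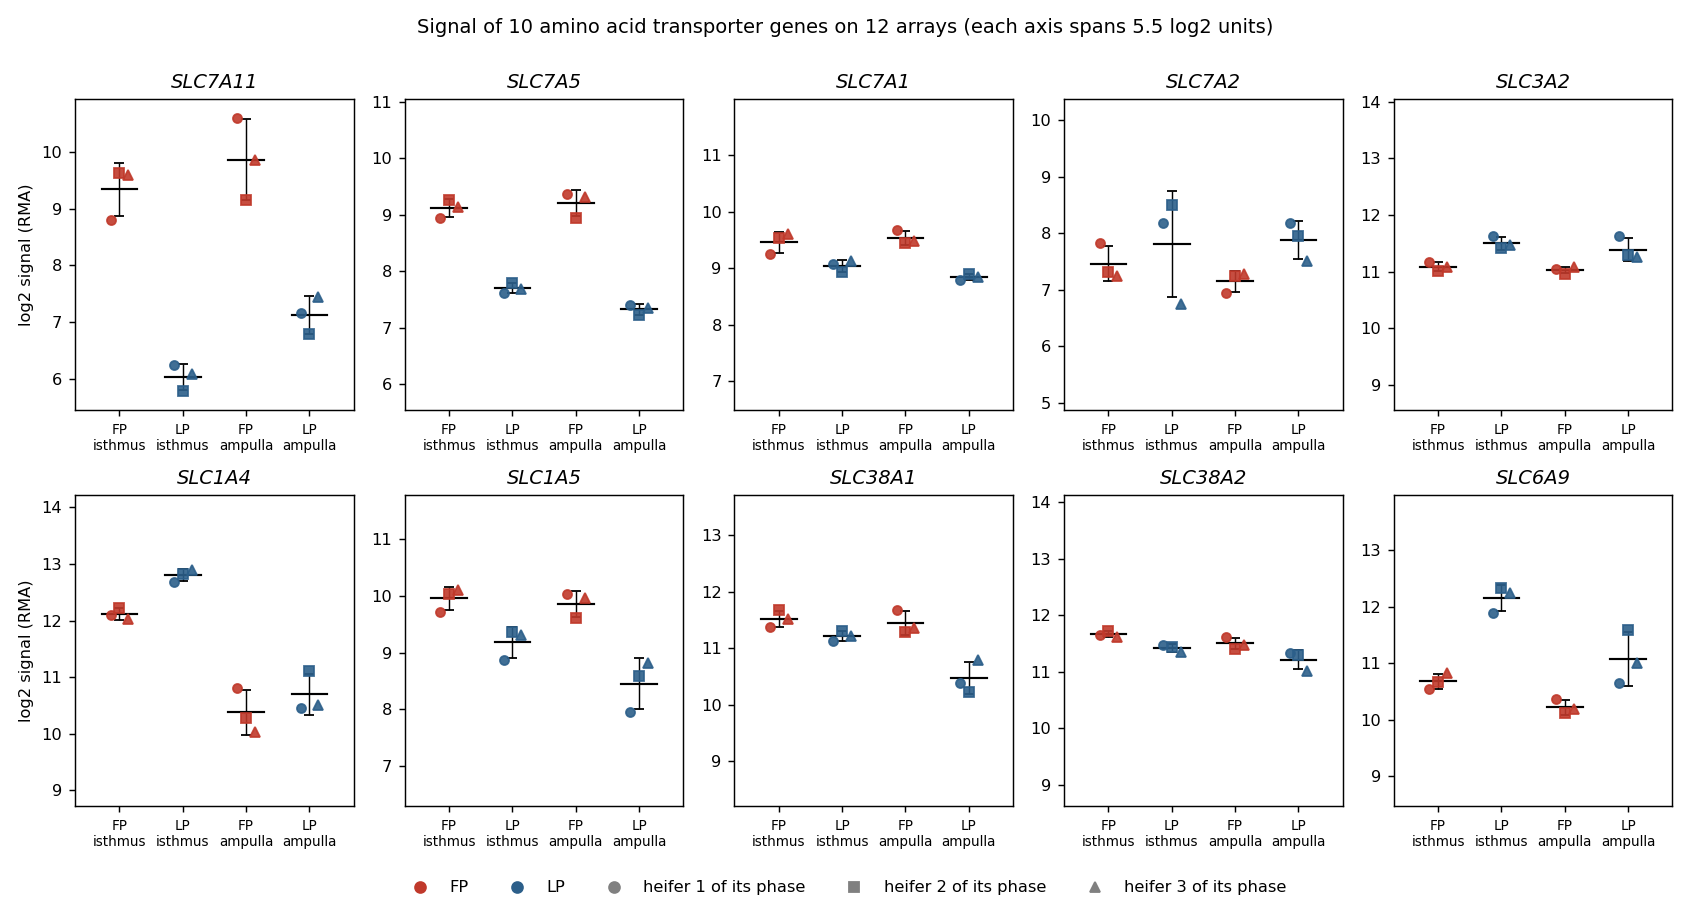
Log2 signal of each of the 10 members (vertical axes, each spanning 5.5 log2 units at its own level) in the 4 groups of 3 arrays; points are arrays, horizontal lines group means and bars 1 SD. SLC7A11 and SLC7A5 lie higher in FP than in LP in both tissues with no overlap, SLC6A9 lies lower, and SLC1A4 separates by tissue, with every isthmus array above every ampulla array.

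SLC7A11, the cystine and glutamate exchanger, had the largest phase difference of the 10 members in both tissues. In the isthmus its log2 signal was 8.80, 9.64 and 9.60 in FP heifers, against 6.24, 5.78 and 6.08 in LP heifers. In the ampulla it was 10.60, 9.16 and 9.86 in FP heifers, against 7.15, 6.79 and 7.45 in LP heifers. All 6 FP arrays were above all 6 LP arrays, whichever tissue they came from. The limma difference was 3.32 in the isthmus (9.96-fold higher, SE 0.34, adjusted p = 0.000298) and 2.74 in the ampulla (6.69-fold higher, SE 0.34, adjusted p = 0.000654). Ordered by size among all positive FP minus LP differences, it was number 13 in the isthmus and number 23 in the ampulla. Both calls held when any 1 heifer was left out (differences of 3.17 to 3.59 in the isthmus and 2.38 to 3.10 in the ampulla). The LP isthmus mean of 6.03 ± 0.23 (SD, n = 3) was close to the lower quartile of the arrays, so the size of the isthmus difference is less certain than its direction.

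The order of the SLC7A11 levels was FP ampulla (9.87 ± 0.72), FP isthmus (9.35 ± 0.47), LP ampulla (7.13 ± 0.33) and LP isthmus (6.03 ± 0.23; SD, n = 3 each). The first and second of these did not differ beyond their spread, with an isthmus minus ampulla difference in the FP of -0.53 (SE 0.34, adjusted p = 0.47 in limma), and their arrays overlapped. In the LP, all 3 isthmus arrays were below all 3 ampulla arrays, by 1.10 on average (-1.10, SE 0.34, adjusted p = 0.0637), and the difference missed the threshold over the 12 arrays. It passed under 5 of the alternative settings, the lowest adjusted p being 0.0169 without FP heifer 1. The phase by tissue interaction, which is the isthmus phase difference minus the ampulla one, was 0.57 (95% interval -0.50 to 1.65, adjusted p = 0.773), so that a difference between the tissues in the size of the SLC7A11 rise was not shown.

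SLC7A5, the light chain of the carrier that brings in large neutral amino acids such as leucine, had the smallest adjusted p among the members in both phase comparisons. Its signal was 8.94, 9.25 and 9.14 in FP isthmus, against 7.62, 7.79 and 7.69 in LP isthmus. It was 9.36, 8.95 and 9.31 in FP ampulla, against 7.41, 7.22 and 7.35 in LP ampulla. The arrays of each group lay within a narrow band, and in each tissue every FP array exceeded every LP array by more than 1. SLC7A5 was 2.66-fold higher in FP isthmus (log2 difference 1.41, SE 0.12, adjusted p = 0.000116 in limma) and 3.67-fold higher in FP ampulla (1.88, SE 0.12, adjusted p = 1.92e-05). Within the LP the isthmus values lay above the ampulla values without overlap (difference 0.37, SE 0.12, adjusted p = 0.082), and within the FP the tissues overlapped (-0.09, SE 0.12, adjusted p = 0.759). The interaction of -0.46 (SE 0.17, adjusted p = 0.417) did not pass the threshold.

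SLC3A2, the heavy chain shared by SLC7A11, SLC7A5 and several other light chains, had a phase difference of the opposite sign to theirs. Its signal was 11.17, 11.01 and 11.08 in FP isthmus, against 11.63, 11.41 and 11.46 in LP isthmus. In FP ampulla it was 11.05, 10.96 and 11.08, against 11.62, 11.30 and 11.25 in LP ampulla. Every FP array was below every LP array, by a small margin. The differences of -0.41 in the isthmus (SE 0.11, adjusted p = 0.0249) and -0.36 in the ampulla (SE 0.11, adjusted p = 0.0461) were past the p threshold in limma but under 1.5-fold, so that neither was called. Isthmus and ampulla overlapped within each phase, with a difference of 0.06 in FP heifers (adjusted p = 0.844) and 0.11 in LP heifers (adjusted p = 0.595).

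**Figure D2:**
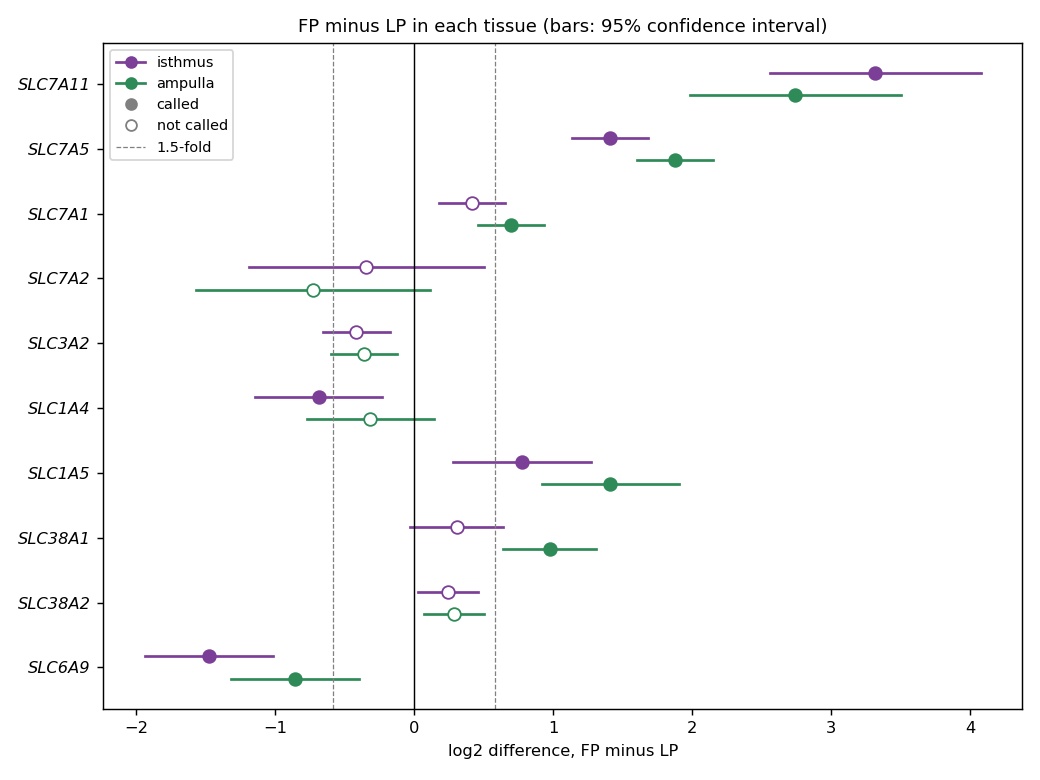
FP minus LP log2 difference (horizontal axis) of each member, with the isthmus above the ampulla for each gene; points are limma estimates over 3 against 3 arrays, lines their 95% confidence intervals, filled points called differences and dashed lines 1.5-fold. SLC7A11 and SLC7A5 lie farthest to the right, SLC6A9 farthest to the left, and the intervals of SLC3A2 lie below 0 without a call.

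The cationic amino acid carriers SLC7A1 and SLC7A2 had phase differences of opposite sign. SLC7A1, the widely expressed arginine and lysine carrier, was at 9.25, 9.53 and 9.60 in FP isthmus, against 9.07, 8.93 and 9.13 in LP isthmus. It was at 9.68, 9.45 and 9.49 in FP ampulla, against 8.79, 8.89 and 8.84 in LP ampulla. The groups did not overlap in either tissue, but the margin in the isthmus was narrow. In limma, it rose in the ampulla by 0.70 (SE 0.11, adjusted p = 0.00204), or 1.62-fold, while the isthmus difference of 0.42 (SE 0.11, adjusted p = 0.0237) was under 1.5-fold and was not called.

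SLC7A2, which is expressed in fewer cell types, varied most among the LP arrays. Its signal was 7.82, 7.32 and 7.25 in FP isthmus, against 8.18, 8.50 and 6.74 in LP isthmus, where LP heifer 3 was the lowest of all 12 arrays. It was 6.94, 7.24 and 7.28 in FP ampulla, against 8.18, 7.95 and 7.51 in LP ampulla, and here LP heifer 3 was the lowest of its group but still above the FP arrays. Neither difference was called over the 12 arrays, with -0.34 in the isthmus (SE 0.38, adjusted p = 0.613) and -0.73 in the ampulla (SE 0.38, adjusted p = 0.238). Without LP heifer 3 they were -0.87 (adjusted p = 0.0228) and -0.91 (adjusted p = 0.0194), and both passed. Without LP heifer 2, however, the isthmus difference was 0.0046 (adjusted p = 0.996), so it depended on which LP heifer was left out. LP heifer 3 is the animal with the highest leukocyte markers and, in the isthmus, with low LUM, and the part of other cells in the SLC7A2 values was not tested.

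The exchangers of small neutral amino acids, SLC1A4 and SLC1A5, are close relatives with different patterns. SLC1A5, a main route for glutamine, was at 9.72, 10.04 and 10.11 in FP isthmus, against 8.87, 9.36 and 9.31 in LP isthmus. It was at 10.03, 9.60 and 9.96 in FP ampulla, against 7.96, 8.59 and 8.81 in LP ampulla. All 6 FP arrays were above all 6 LP arrays. In limma, it was 1.71-fold higher in FP isthmus (0.78, SE 0.22, adjusted p = 0.0373) and 2.66-fold higher in FP ampulla (1.41, SE 0.22, adjusted p = 0.00232). The isthmus call ended without FP heifer 1, 2 or 3 or LP heifer 2 (adjusted p up to 0.14), and the ampulla call held without any 1 heifer.

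SLC1A4, which carries alanine, serine and cysteine, separated by tissue. Its signal was 12.09, 12.23 and 12.03 in FP isthmus and 10.81, 10.28 and 10.04 in FP ampulla. It was 12.69, 12.82 and 12.90 in LP isthmus and 10.45, 11.11 and 10.52 in LP ampulla. The lowest isthmus array stood above the highest ampulla array, so all 6 heifers had more in the isthmus however the arrays are paired. In limma, isthmus exceeded ampulla by 1.74 (SE 0.21, adjusted p = 0.00185) in the FP, or 3.34-fold, and by 2.11 (SE 0.21, adjusted p = 0.000172) in the LP, or 4.32-fold. The FP call ended without FP heifer 2 (1.63, adjusted p = 0.0561). The LP call held without any 1 heifer, and the difference was 1.97 (adjusted p = 0.00492) without LP heifer 3, whose isthmus had little of the fibroblast gene LUM. The part of other cells in the SLC1A4 values was not tested.

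Between the phases, SLC1A4 was lower in FP than in LP isthmus without overlap, by -0.69 (SE 0.21, adjusted p = 0.0454), or 1.61-fold. That call ended without any 1 of the 6 heifers, and also with array weights or with arrays centred on their median (adjusted p up to 0.13). In the ampulla the groups overlapped and the difference was -0.31 (SE 0.21, adjusted p = 0.361).

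SLC38A1 and SLC38A2, sodium-driven carriers of glutamine and other neutral amino acids, are neighbouring genes with no annotated gene between them. SLC38A1 was at 11.38, 11.67 and 11.51 in FP isthmus, against 11.13, 11.31 and 11.21 in LP isthmus. It was at 11.68, 11.28 and 11.36 in FP ampulla, against 10.39, 10.23 and 10.78 in LP ampulla. The LP ampulla arrays were below all 9 others, and the other 3 groups lay close together. In limma, SLC38A1 was 1.97-fold higher in FP ampulla (0.97, SE 0.15, adjusted p = 0.00215), while the isthmus difference was 0.31 (SE 0.15, adjusted p = 0.21). The interaction was -0.67 (SE 0.22) with an unadjusted p of 0.0104, the smallest of the 10 members, and an adjusted p of 0.335, so that unequal differences in the tissues were not shown over all probesets.

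SLC38A2, whose RNA is known to respond to amino acid shortage in cultured cells, differed least between the phases in absolute size. Its signal was 11.65, 11.72 and 11.62 in FP isthmus, against 11.48, 11.44 and 11.34 in LP isthmus. It was 11.61, 11.41 and 11.48 in FP ampulla, against 11.33, 11.29 and 11.02 in LP ampulla. The FP arrays were above the LP arrays in each tissue, but the differences of 0.24 in the isthmus (SE 0.10, adjusted p = 0.119) and 0.29 in the ampulla (SE 0.10, adjusted p = 0.0719) missed the threshold in limma.

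SLC6A9, the glycine carrier, was the member with the largest fall. Its signal was 10.55, 10.68 and 10.82 in FP isthmus, against 11.89, 12.33 and 12.25 in LP isthmus. It was 10.37, 10.12 and 10.19 in FP ampulla, against 10.65, 11.59 and 11.01 in LP ampulla. The groups did not overlap in either tissue, with LP ampulla the widest group. In limma, it fell by 1.47 in the isthmus (SE 0.21, adjusted p = 0.00128), a 2.78-fold difference, and by 0.85 in the ampulla (SE 0.21, adjusted p = 0.0188), a 1.81-fold difference. The isthmus call held without any 1 heifer. The ampulla call ended without FP heifer 1, 2 or 3 or LP heifer 3, and with the compared arrays fitted alone (adjusted p up to 0.0964).

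Between the tissues, 1 of the 10 members was called higher in the isthmus than in the ampulla in the FP (SLC1A4) and 3 in the LP (SLC1A4, SLC6A9 and SLC38A1), with none called lower. Over all probesets, 1.52% were called higher and 0.829% lower in FP heifers, and 3.92% higher and 3.07% lower in LP heifers. Isthmus and ampulla values did not overlap for 3 members in the FP, against 25.0% of all probesets, and for 8 members in the LP, against 29.5%. SLC6A9 was 1.07 higher in LP isthmus than in LP ampulla (SE 0.21, adjusted p = 0.00768). It was not called without LP heifer 3 or with the compared arrays fitted alone (adjusted p up to 0.0754), and in the FP the difference was 0.45 (SE 0.21, adjusted p = 0.284). SLC38A1 was 0.75 higher in LP isthmus (SE 0.15, adjusted p = 0.00994) but was not called without LP heifer 1 or 2 (adjusted p up to 0.109), and in the FP the difference was 0.08 (SE 0.15, adjusted p = 0.85). SLC1A5 was 0.73 higher in LP isthmus (SE 0.22, adjusted p = 0.0601), and with heifer as a fixed replicate block, which compares the tissues within each animal, it passed (adjusted p = 0.0337), giving 4 members called in the LP in place of 3. Of the 6 fibroblast markers, all had positive isthmus minus ampulla differences in the FP, and 4 positive and 2 negative ones in the LP, and their part in these differences was not tested.

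None of the 10 interactions passed in limma (smallest adjusted p = 0.335), against 0.153% of all probesets, and 2 had an unadjusted p under 0.05, those of SLC38A1 and SLC7A5. With the F-test and LSD contrasts of the study's methods, these 2 passed (adjusted p = 0.0186 and 0.0292). Of the 10 interactions, 8 were negative and 2 positive, SLC7A11 and SLC7A2 being the positive ones.

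**Figure D3:**
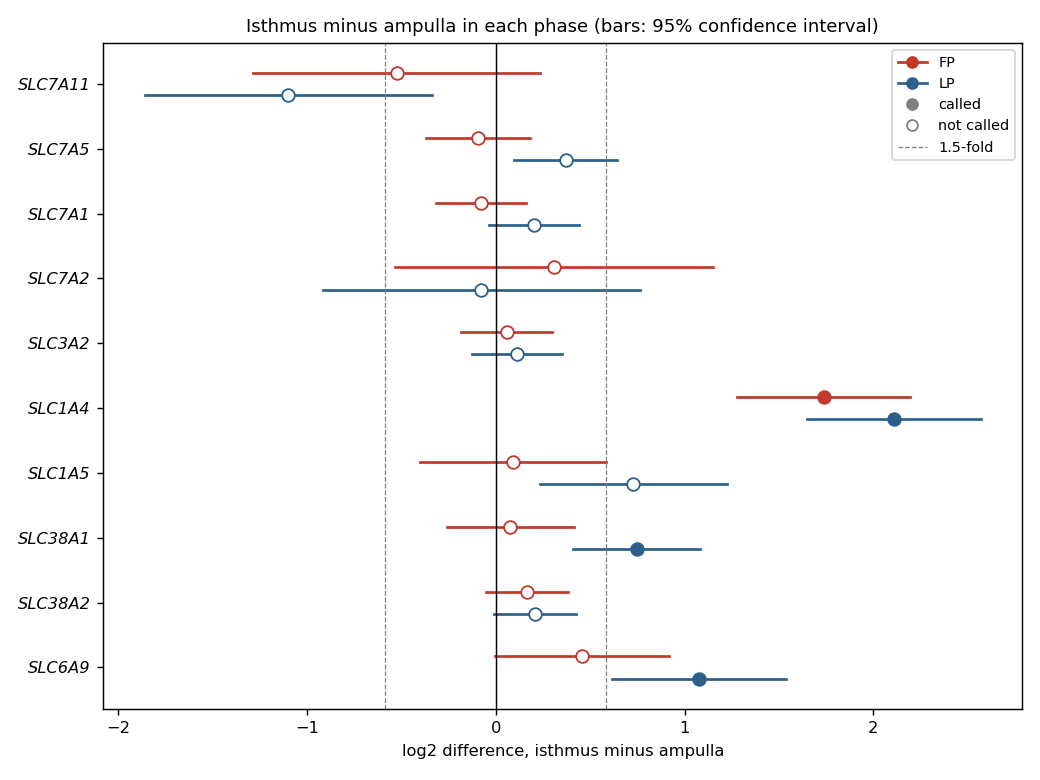
Isthmus minus ampulla log2 difference (horizontal axis) of each member, with FP above LP for each gene; points are limma estimates over 3 against 3 arrays, lines their 95% confidence intervals, filled points called differences and dashed lines 1.5-fold. SLC1A4 lies at 1.74 in FP heifers and 2.11 in LP heifers, and SLC7A11 is the member farthest to the left in both phases, without a call.

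Of 40 other amino acid carriers listed, 38 were read on the array. In the isthmus 1 was called higher and 5 lower in the FP, against 4.40% and 4.04% of all probesets, with a median difference of -0.01. In the ampulla 0 were called higher and 2 lower, against 4.44% and 3.38% of all probesets, with a median difference of -0.10, and most of the 38 were called in neither tissue. In each group, 6 or 7 of the 38 had a mean below the lower quartile, and none of the 10 members did. The gene called higher in the isthmus was SLC7A6, another light chain of SLC3A2, at 9.55, 9.65 and 9.73 in FP heifers against 9.30, 8.35 and 8.50 in LP heifers. Its rise of 0.93 (SE 0.21, adjusted p = 0.0117 in limma) lost its call without FP heifer 3 or LP heifer 2 or 3, and with the compared arrays fitted alone (adjusted p up to 0.0613). Its relative SLC7A7, also a partner of SLC3A2, fell in the isthmus, with a mean of 6.57 ± 0.04 in FP heifers against 7.26 ± 0.14 in LP heifers (SD, n = 3 each; difference -0.69, SE 0.11, adjusted p = 0.00224). The SLC7A7 difference in the ampulla was -0.51 (SE 0.11, adjusted p = 0.00994), under 1.5-fold and so not called.

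SLC1A1, a carrier of glutamate, aspartate and cysteine, fell in both tissues and was also the carrier with the largest tissue difference. Its signal was 11.65, 11.70 and 11.57 in FP isthmus, against 12.68, 13.18 and 12.76 in LP isthmus. It was 8.66, 8.40 and 7.76 in FP ampulla, against 9.04, 9.57 and 9.23 in LP ampulla. The 4 groups did not overlap. In limma, the phase difference was -1.23 in the isthmus (SE 0.22, adjusted p = 0.00409) and -1.004 in the ampulla (SE 0.22, adjusted p = 0.012), and isthmus exceeded ampulla by 3.37 in FP heifers (adjusted p = 5.19e-05) and 3.60 in LP heifers (adjusted p = 1.06e-05). All 4 calls held without any 1 heifer.

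SLC6A15, a carrier of branched-chain and other neutral amino acids, fell by 1.18 in the isthmus (SE 0.35, adjusted p = 0.0415) and by 1.40 in the ampulla (SE 0.35, adjusted p = 0.0207). The isthmus call ended without FP heifer 1, 2 or 3 or LP heifer 1 or 2 (adjusted p up to 0.16), and so did the ampulla call (adjusted p up to 0.0818). The isthmus call also ended with the compared arrays fitted alone. SLC36A2, a proton-driven carrier of glycine and proline, fell by 1.76 in the isthmus (SE 0.45, adjusted p = 0.0215), where LP heifers had 7.36, 9.66 and 8.08. That call ended without FP heifer 1, 2 or 3 or LP heifer 3, with the F-test and LSD contrasts, and with the compared arrays fitted alone (adjusted p up to 0.113). Without LP heifer 2 the SLC36A2 difference was -1.11 (adjusted p = 0.0262). SLC38A7, a lysosomal carrier of glutamine and asparagine, was at 8.59, 8.43 and 8.25 in FP isthmus, against 9.10, 9.26 and 9.11 in LP isthmus. It fell by 0.73 there (SE 0.10, adjusted p = 0.00103), with a difference of 0.06 in the ampulla (SE 0.10, adjusted p = 0.756) and an interaction of -0.79 (SE 0.14, adjusted p = 0.0773) that missed the threshold.

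**Figure D4:**
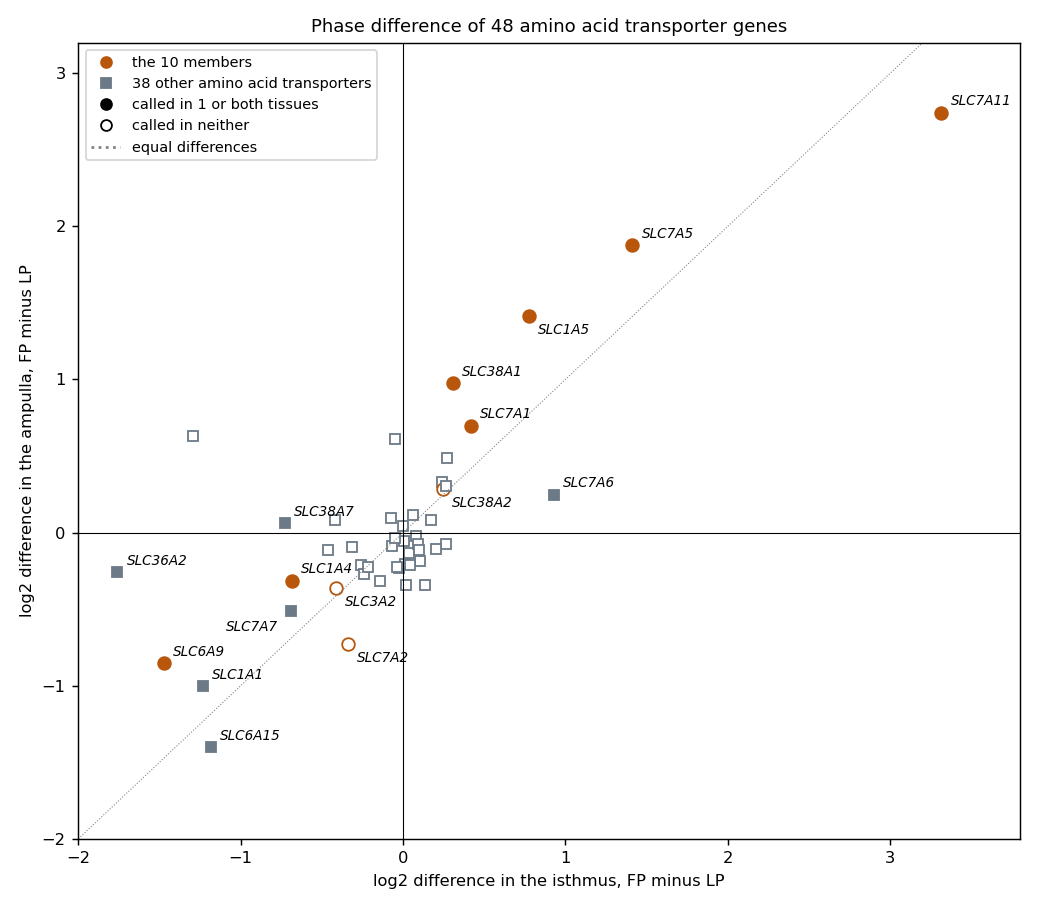
FP minus LP log2 difference in the isthmus (horizontal axis) and in the ampulla (vertical axis) of the 10 members (circles) and 38 other amino acid carriers (squares), with genes called in 1 or both tissues filled and the dotted line marking equal differences. SLC7A11, SLC7A5 and SLC1A5 lie at the upper right, SLC6A9, SLC1A1 and SLC6A15 at the lower left, and most other carriers lie near 0.

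In tissue comparisons, 3 of the 38 other carriers were called higher in FP isthmus than in FP ampulla and 1 lower, against 1.52% and 0.829% of all probesets. In the LP, 4 of the 38 were called higher in the isthmus than in the ampulla and 1 lower, against 3.92% and 3.07% of all probesets. Beside SLC1A1, the carrier SLC43A1, which brings in large neutral amino acids, was 0.60 higher in the isthmus in the FP (SE 0.09, adjusted p = 0.00785) and 0.95 higher in the LP (SE 0.09, adjusted p = 0.000183). The FP call of SLC43A1 ended without FP heifer 2 or 3, with array weights, and with the compared arrays fitted alone. SLC6A6, the taurine carrier, was 0.93 higher in the isthmus in the FP (adjusted p = 0.0213) and 0.67 higher in the LP (adjusted p = 0.0344), but with heifer as a fixed replicate block both calls ended (adjusted p = 0.0776 and 0.0928). For the FP, that fit rests on arrays of the same number, which did not deviate together. The FP call of SLC6A6 also ended without FP heifer 1 (0.59, adjusted p = 0.0748) or 2, and with the compared arrays fitted alone. The LP call of SLC6A6 ended without FP heifer 2 or LP heifer 1, 2 or 3. SLC38A7 was 1.06 higher in LP isthmus (adjusted p = 0.000122). Lower in the isthmus were SLC16A10, a carrier of aromatic amino acids, in the FP (-1.52, adjusted p = 0.0247, not without FP heifer 1, 2 or 3), and SLC7A6 in the LP (-1.18, adjusted p = 0.00435, not without LP heifer 2).

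Of 9 genes of cystine use and glutathione, 2 were called higher and 1 lower in the isthmus, and 3 higher in the ampulla, while 6 were not called in each tissue. Over all probesets, as given above, 4.40% were called higher and 4.04% lower in the isthmus, and 4.44% and 3.38% in the ampulla. Glutathione reductase GSR rose by 1.08 in the isthmus and 1.38 in the ampulla, and the glutathione-degrading enzyme CHAC1 by 1.02 and 0.84 (adjusted p up to 0.000769 in limma). Glutathione synthetase GSS rose by 0.78 in the ampulla (adjusted p = 0.000593). Its isthmus difference of 0.47 (adjusted p = 0.00736) was under 1.5-fold and not called. GGT1, which splits glutathione outside the cell, fell by 0.71 in the isthmus (adjusted p = 0.00451). Of 9 genes of the amino acid and NRF2 responses, 2 were called higher in the isthmus and 3 in the ampulla, while 7 and 6 were not called. Those called were ASNS, an enzyme that makes asparagine (1.34 in the isthmus and 0.77 in the ampulla), and the transcription factor DDIT3 (1.09 and 1.03). In the ampulla, ATF4, the transcription factor that drives amino acid supply genes, was also called (0.79). The adjusted p of these calls was up to 0.0103. Of the NRF2 genes, NFE2L2, KEAP1 and BACH1 were called in neither tissue.

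The pattern of SLC7A11 over the 12 arrays was most like those of SARS1 (Pearson r = 0.991), RP2 (0.990), TARS1 (0.988), DCLRE1B (0.982) and PIGB (0.982), out of 18009 other genes. SARS1 and TARS1 encode the enzymes that load serine and threonine onto their tRNAs, RP2 a protein of the base of cilia, DCLRE1B a nuclease that protects chromosome ends and PIGB an enzyme of GPI anchor synthesis. The 12 arrays fall into 4 groups that differ for many genes, so these correlations mostly follow the group means and are given as a description without a test. Since the genes were picked for likeness to SLC7A11, their group differences follow from the choice. The FP minus LP difference in the isthmus was 0.87 for SARS1, 0.95 for RP2, 1.10 for TARS1, 1.91 for DCLRE1B and 1.22 for PIGB.

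**Figure D5:**
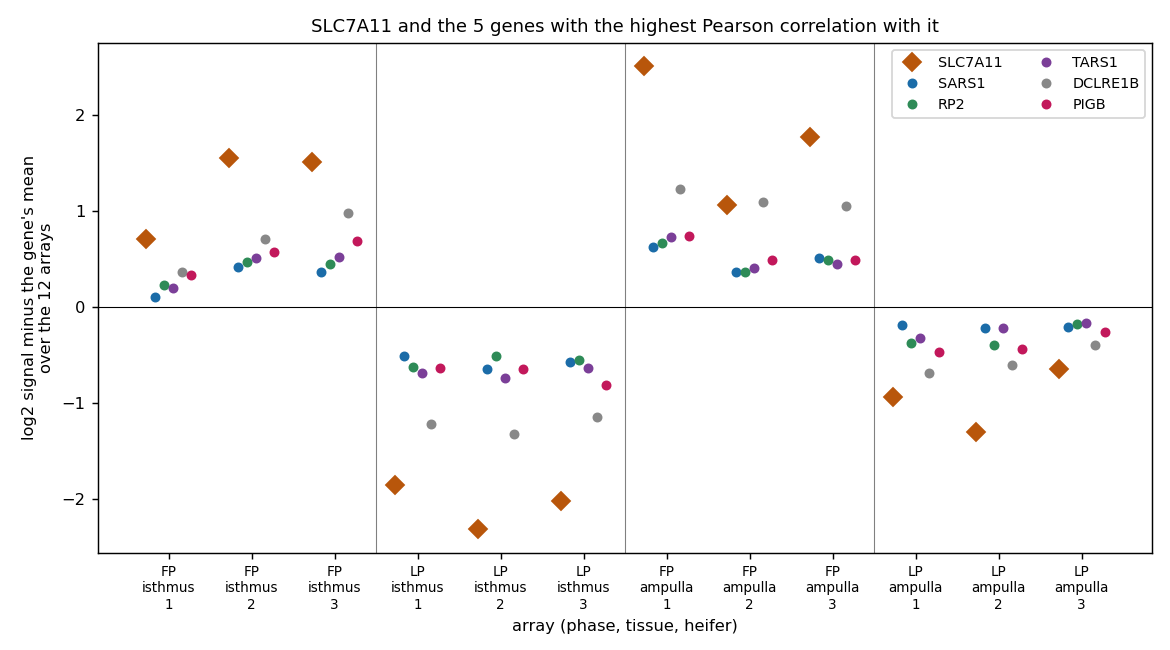
Log2 signal of SLC7A11 (diamonds) and of the 5 genes with the highest Pearson correlation with it (circles), each minus its own mean over the 12 arrays (vertical axis), by array (horizontal axis). All 6 genes are above their mean on every FP array and below it on every LP array, and SLC7A11 spans the widest range.

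Among the members, SLC7A5 was the most like SLC7A11 (r = 0.906, number 483 of 18009), followed by SLC7A1 (0.863) and SLC1A5 (0.716). SLC38A1 (0.585) and SLC38A2 (0.560) came next. The negative correlations were SLC1A4 (-0.462), SLC7A2 (-0.569), SLC3A2 (-0.851) and SLC6A9 (-0.872, number 17504). The closest pairs among the members were SLC7A5 with SLC7A1 (r = 0.948) and SLC1A5 with SLC38A1 (0.917), while SLC38A1 and its neighbour SLC38A2 had r = 0.734, all over the same 12 arrays.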

How the data were processed

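Total RNA of epithelial cells squeezed from each tissue was hybridized to 1 array per sample, without pooling. The log2 values were deposited by the authors, who made them with GCOS (1.2) and Partek (6.4 in the submitters' notes), using RMA background correction, quantile normalization and median polish. They came without detection calls, and all 26773 probesets were used as deposited. Arrays of a group correlated at 0.984 to 0.990, and the number of arrays limits the precision. Probesets were named from the platform annotation, and those with several symbols (688) or none (7628) were not named.

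In limma 3.58.1 (R 4.3.3), the 4 group means were estimated from all 12 arrays with empirical Bayes variances (8 residual degrees of freedom), and Benjamini-Hochberg adjustment covered every probeset in each of the 5 comparisons. Calls needed an adjusted p under 0.05 and at least 1.5-fold (interactions: no minimum fold). The procedure was tested on simulated data. Plots were drawn with Python 3.11.15 and matplotlib 3.10.9. Neighbouring genes were read from the ARS-UCD2.0 annotation.

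The labels pair isthmus and ampulla by heifer. After removal of group means, same-heifer arrays correlated at -0.05, -0.17 and -0.10 in the FP (different heifers -0.15 to 0.24) and at 0.26, 0.22 and 0.37 in the LP (different heifers -0.22 to -0.05). Heifer as a random or fixed block was run as an alternative, as were the study's F-test with LSD contrasts, other array sets and weights, and each heifer left out. In the F-test with LSD contrasts, the threshold applied to the larger of the adjusted F p and the unadjusted LSD p.

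The members and gene lists were chosen with earlier results of these data known. Named genes were all members, other carriers with a call (at most 8 per tissue and direction between phases, at most 4 per phase and direction between tissues), called genes of the small lists (at most 4 per list and tissue) and the 5 genes most like SLC7A11.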

Additional observations from a re-analysis of the deposited data

How the results depend on the processing

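Of 50 comparisons of single members, 15 were called, 9 of these kept their call under every alternative run and 6 lost it under some, while 6 others gained one and 8 changed sign when 1 heifer was left out. With a heifer left out, members called between phases in the isthmus numbered 3 to 5, members called between tissues in the FP 0 to 1, and other carriers called 3 to 5 in the isthmus and 1 to 2 in the ampulla. Other carriers called in the isthmus numbered 3 with the compared arrays fitted alone. Members called between tissues in the LP numbered 5 with the F-test and LSD contrasts and 5 with dim probesets left out, and 2 interactions passed with the F-test and LSD contrasts. With heifer as a random or fixed replicate block, 4 members were called between tissues in the LP in place of 3, and no other call of a member changed. Over all probesets, isthmus against ampulla in the FP gave 629 calls, and 113 to 615 with a heifer left out, 1013 with the F-test and LSD contrasts and 965 with array weights. In the LP it gave 1871 calls, and 1067 to 1784 with a heifer left out. Interactions numbered 41, and 0 to 141 with a heifer left out, 1831 with the F-test and LSD contrasts and 19 with heifer as a fixed replicate block.

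Uncalled differences that changed sign, with their range over the heifers left out, were those between isthmus and ampulla in the FP of SLC7A11 (-1.03 to 0.11), SLC7A5 (-0.294 to 0.0677), SLC7A1 (-0.18 to 0.10), SLC1A5 (-0.081 to 0.293) and SLC38A1 (-0.0767 to 0.267), that of SLC7A2 in the LP (-0.39 to 0.27) and between phases in the isthmus (-0.87 to 0.0046), and the interaction of SLC38A2 (-0.119 to 0.0204). The cause was not tested. No member had a second probeset, so another probeset could not be tried. With 3 heifers per group, a difference that missed the threshold is not shown to be absent, and signal near the lower quartile of the arrays has an uncertain fold.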
